A study of Mus musculus with 16 samples.

Results

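Hox genes were taken as every gene whose mouse symbol is Hox followed by a cluster letter from a to d and a paralog number, and 39 of the 45513 genes in the deposited counts met this rule. They lie in 4 clusters of GRCm38, with 11 genes in HoxA (chromosome 6, 52155590 to 52260880, minus strand), 10 in HoxB (chromosome 11, 96194316 to 96368256, plus strand), 9 in HoxC (chromosome 15, 102921103 to 103036852, plus strand) and 9 in HoxD (chromosome 2, 74668310 to 74765142, plus strand). The RNA came from the colon of 8 adult Atoh1(WT)CreERT2 R26RtdTom mice of C57BL/6 background, all given 1 mg of tamoxifen a day on 3 days according to the labels, and each mouse gave 1 library of EpCAM+ tdTom+ and 1 of EpCAM+ tdTom− live cells. Every mouse, and so both populations, carried the Cre allele at Atoh1 and the tdTom reporter, which marks cells that express Atoh1, the transcription factor required for the secretory lineages, and their recent progeny. Cells came from fractions enriched for crypts, the first fraction having been discarded, so the tdTom− gate holds the other epithelial cells of those fractions, among them absorptive, stem and tuft cells, and neither gate is a single cell type. The 2 libraries of a mouse come from the same colon, which the methods of the study name without limiting it to a stretch, so each library averages over positions along it.

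Hox genes encode homeodomain transcription factors that give cells their position along the body axis. Within a cluster the genes lie in the order in which they are used from head to tail, low paralog numbers anterior and high numbers posterior, and many cells keep their Hox pattern into adult life. In the gut both epithelium and mesenchyme express them, and the posterior genes of group 13 are known for their part in forming the hindgut. Sorting 2 populations from the same colon asks which Hox transcripts are alike in both and which differ between them. Whether the populations hold the same mix of positions along the colon was not tested. A difference of position and a difference of lineage therefore cannot be told apart here.

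Total counts per library ran from 16482530 to 24218367 in tdTom+ cells and from 18318172 to 45791503 in tdTom− cells, and 3 counts, taken as the floor, came to between 0.0655 and 0.182 CPM (counts scaled to a library of 1e+06 reads). Mean Atoh1 was 132 CPM (tdTom+) against 5.70 CPM (tdTom−), and all 10 goblet cell markers were higher in tdTom+ cells. Of the 10 absorptive markers 9 were lower and Guca2b was higher, all 10 enteroendocrine markers were lower, and so were 6 of 9 tested stem cell genes, 6 of 10 proliferation genes and 8 of 10 tuft markers. The summed epithelial markers reached 6729 to 7848 CPM in tdTom+ and 10230 to 13050 CPM in tdTom− samples (1 of 7 higher, 6 lower). The 14 mesenchymal markers summed to 16.8 to 21.7 CPM in tdTom+ and 22.5 to 34.5 CPM in tdTom− samples. Of them 4 were tested and 2 were lower in tdTom+ cells. Col1a2, Col3a1, Dcn, Lum, Twist1 and Twist2 had 0 to 5 counts over all 16 libraries, so these sums came almost entirely from the other markers of the list. Neuron and glia markers summed to at most 9.75 CPM in tdTom+ and 14.2 CPM in tdTom− samples (1 of 8 lower), endothelial markers to at most 6.87 and 6.40 CPM (1 of 6 higher, 1 lower), and immune markers to at most 13.5 and 39.5 CPM (2 of 12 lower). These libraries are bulk samples, in which fewer cells of a type and less RNA per cell cannot be told apart.

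The colon epithelium carried a posterior Hox profile from 3 of the 4 clusters. Per kilobase of exon (CPM per kb, the scale used for levels between genes), all Hox genes together summed to 233 ± 15.8 (SD, n = 8 mice) in tdTom+ and 232 ± 21.4 in tdTom− cells. Genes of paralog groups 9 to 13 made up 77.5 ± 2.64% of this sum in tdTom+ and 71.8 ± 4.88% in tdTom− cells, groups 4 to 8 made up 18.2 ± 2.36% and 24.5 ± 4.42%, and groups 1 to 3 made up 4.28 ± 0.540% and 3.67 ± 0.532%. By cluster, HoxB held 70.7 ± 2.02% of the sum in tdTom+ and 69.0 ± 1.87% in tdTom− cells, HoxA 23.1 ± 1.87% and 24.5 ± 1.43%, and HoxD 6.19 ± 1.02% and 6.52 ± 1.28%. HoxC was close to silent, with 62 counts for its 9 genes over all 16 libraries, 46 of them in Hoxc9, and with Hoxc10, Hoxc11, Hoxc12 and Hoxc13 at 0 in every library.

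**Figure D1:**
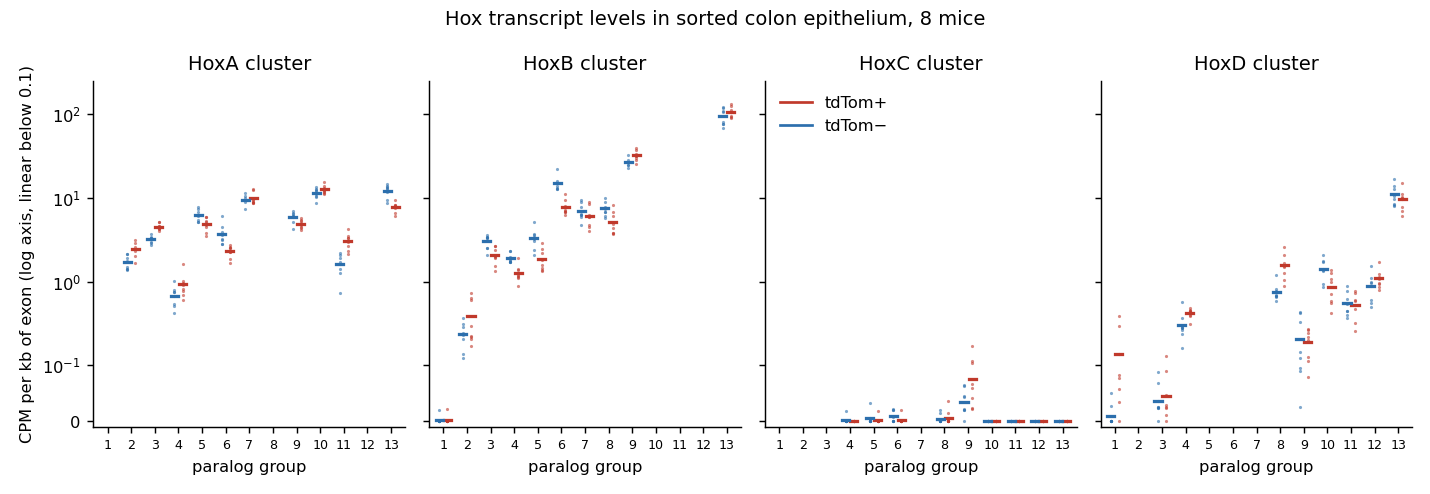
Level of the Hox genes reported here in CPM per kb of exon (log axis, linear below 0.1) by paralog group and cluster, with 1 point per library and a bar at the mean of 8 mice in each population. Hoxb13 stands highest in both populations, the gene of group 13 is among the highest in HoxA, HoxB and HoxD, and HoxC stays near 0.

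Hoxb13, the most posterior gene of its cluster, was the most abundant Hox gene in every library. Its level was 108 ± 15.5 CPM per kb (SD, n = 8) in tdTom+ and 94.8 ± 21.2 CPM per kb in tdTom− cells, and it took 37.2% of all Hox counts. Hoxb9 followed at 32.4 ± 4.65 and 26.7 ± 2.88 CPM per kb, and neither the range of Hoxb13 nor that of the next gene overlapped its own in either population. Below Hoxb9 the order was no longer separated by the spread between mice. In tdTom+ cells Hoxa10 (12.7 ± 1.43), Hoxa7 (9.94 ± 1.65), Hoxd13 (9.66 ± 2.85), Hoxb6 (7.87 ± 1.68) and Hoxa13 (7.73 ± 1.01 CPM per kb) came next, each overlapping its neighbour in this order. In tdTom− cells the order was Hoxb6 (15.1 ± 3.15), Hoxa13 (12.2 ± 2.13), Hoxa10 (11.5 ± 1.60), Hoxd13 (11.03 ± 3.17) and Hoxa7 (9.56 ± 1.17 CPM per kb), again with overlapping neighbours. Hoxb6 and Hoxa13 thus held places 3 and 4 in tdTom− cells but 6 and 7 in tdTom+ cells, and both were among the genes that fell.

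The comparison of the populations was made on the counts with edgeR's quasi-likelihood test, at a Benjamini-Hochberg adjusted p under 0.01 over all 15841 genes tested. Of the 39 Hox genes, 25 passed the filter on low counts, 5 were higher in tdTom+ cells (20% of the 25, beside 25.5% of all genes tested) and 7 were lower (28.0%, beside 25.5%), and 13 did not pass the test. In this fit, which had no mouse term, the share of Hox genes called, 48.0%, was close to the 51.0% of all genes. Among the called Hox genes only Hoxd8, at 1.07, exceeded 1 on the log2 scale. Of all genes tested, 16.7% were called with a change that large. The median absolute log2 fold change was nevertheless larger in the 25 Hox genes, at 0.51, than over all genes tested, at 0.333. In the fit blocked by mouse, which uses the pairing of the libraries, 16 of the 25 Hox genes were called. Of the 25, 6 were higher, beside 28.4% of all genes, and 10 were lower, beside 28.9% of all genes. Groups that did not overlap at all in CPM were found for 3 Hox genes (Hoxa3, Hoxa6 and Hoxb6), beside 30.5% of all genes tested.

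**Figure D2:**
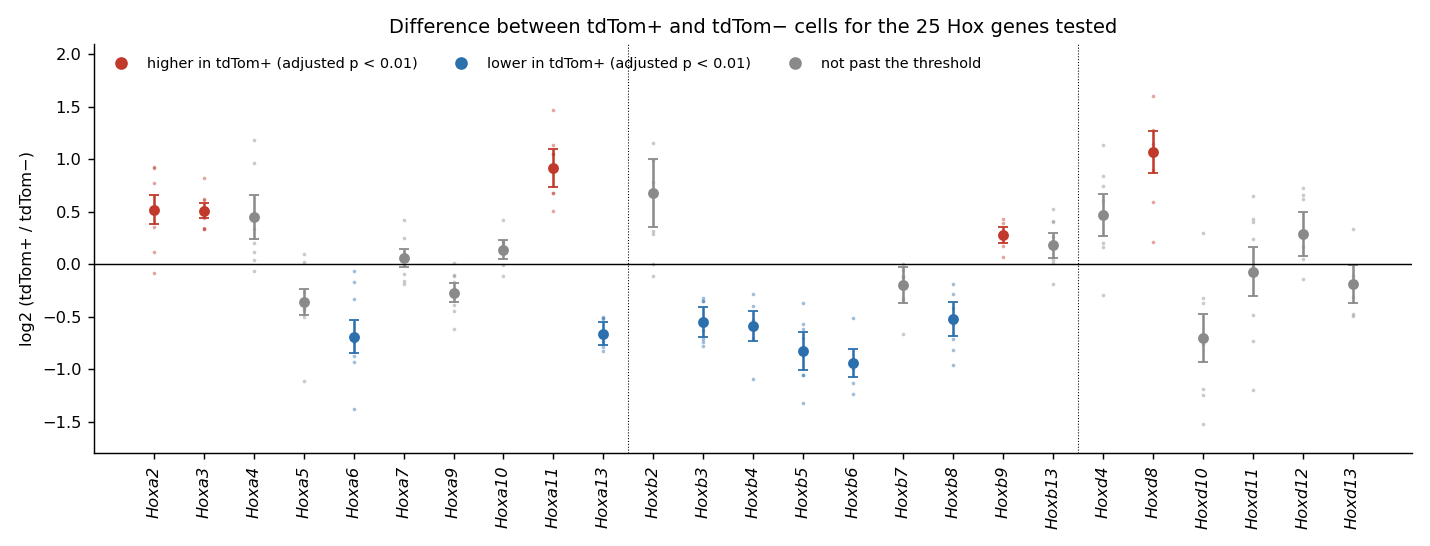
Log2 ratio of tdTom+ to tdTom− cells for the 25 Hox genes tested, with large points and bars for the edgeR estimate ± SE and small points for the 8 mice. The 7 genes that fell include 5 of the 6 genes from Hoxb3 to Hoxb8, and the 5 that rose are spread over HoxA, HoxB and HoxD.

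In HoxB, 5 of the 6 neighbouring genes from Hoxb3 to Hoxb8 fell in tdTom+ cells, beside 25.5% of all genes, in a stretch that was chosen after its values were seen and not tested against other stretches. The calls of Hoxb3 and Hoxb8 among them were lost when single mice were left out of the fit without a mouse term. In HoxA, Hoxa3 rose and Hoxa6 fell although both lie in the same stretch, since the Hoxa3 gene (chromosome 6, 52169062 to 52213336) extends over Hoxa4, Hoxa5 and Hoxa6 in the annotation. RefSeq promoters on GRCm38.p6 were at hand for 22 of the 39 genes, among them 4 called higher and 4 called lower. Of these called genes 5 are printed here: the pair Hoxa3 and Hoxa6, Hoxb4 and Hoxb8 from the HoxB genes that fell, and Hoxd8, the largest rise. Those of the called genes Hoxa2, Hoxa11 and Hoxa13 are not printed. Each printed window is the 250 bases before the start that RefSeq gives, 5′ to 3′ on the gene's own strand. For Hoxa3 the window lies inside the gene's span in the counted annotation, and for Hoxa6 it lies only partly inside. The windows are chr6:52213068-52213317 (minus) for Hoxa3, chr6:52208673-52208922 (minus) for Hoxa6, chr11:96318017-96318266 (plus) for Hoxb4, chr11:96281655-96281904 (plus) for Hoxb8 and chr2:74704365-74704614 (plus) for Hoxd8. Capitals mark 4 motifs searched on both strands: the E-boxes CAGCTG and CAGATG, the kind of site bound by basic helix-loop-helix factors such as Atoh1, and TTTATG and TTTATT, cores of sites for caudal and posterior Hox factors.
Hoxa3: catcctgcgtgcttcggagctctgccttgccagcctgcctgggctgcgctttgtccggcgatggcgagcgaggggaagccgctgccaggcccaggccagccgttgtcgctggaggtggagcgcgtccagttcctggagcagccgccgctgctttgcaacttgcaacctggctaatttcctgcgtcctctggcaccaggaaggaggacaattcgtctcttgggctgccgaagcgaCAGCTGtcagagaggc
Hoxa6: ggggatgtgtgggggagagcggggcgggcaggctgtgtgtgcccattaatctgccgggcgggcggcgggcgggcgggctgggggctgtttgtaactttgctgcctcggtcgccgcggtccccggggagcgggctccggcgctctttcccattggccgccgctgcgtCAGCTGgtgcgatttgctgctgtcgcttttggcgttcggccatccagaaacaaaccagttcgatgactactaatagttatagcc
Hoxb4: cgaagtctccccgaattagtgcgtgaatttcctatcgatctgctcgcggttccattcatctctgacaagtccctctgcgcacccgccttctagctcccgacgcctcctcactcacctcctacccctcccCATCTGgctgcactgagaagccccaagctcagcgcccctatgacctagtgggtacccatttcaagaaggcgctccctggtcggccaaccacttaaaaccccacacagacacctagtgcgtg
Hoxb8: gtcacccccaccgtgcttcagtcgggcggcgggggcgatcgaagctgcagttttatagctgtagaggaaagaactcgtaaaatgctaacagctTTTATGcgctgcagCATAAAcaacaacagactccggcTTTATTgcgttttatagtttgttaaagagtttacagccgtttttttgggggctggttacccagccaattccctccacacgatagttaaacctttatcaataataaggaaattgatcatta
Hoxd8: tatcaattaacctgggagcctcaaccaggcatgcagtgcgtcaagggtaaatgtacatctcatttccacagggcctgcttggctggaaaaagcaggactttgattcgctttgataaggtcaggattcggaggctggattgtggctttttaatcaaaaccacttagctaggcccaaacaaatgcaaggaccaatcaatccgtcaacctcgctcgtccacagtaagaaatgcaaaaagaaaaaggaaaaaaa
Hoxa3 and Hoxa6, which moved in opposite directions, each held 1 CAGCTG, Hoxb4 held 1 CAGATG (on the other strand), Hoxb8 held 2 TTTATG and 1 TTTATT, and Hoxd8 held none of the 4. Of the called genes not printed, Hoxa2 held 1 TTTATT, and Hoxa11 and Hoxa13 held none of the 4. Among all 32851 windows of the same length, 13% held CAGCTG, 14.4% CAGATG, 10.8% TTTATG and 18.1% TTTATT, and among the 24 windows of Hox genes 3, 2, 5 and 5 did. A match only describes the letters of the window.

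Of the anterior genes, groups 1 to 3, 4 were tested, and 2 rose and 1 fell. Hoxa3, known for the pharyngeal arches and the thymus, lay between 24.4 and 30.9 CPM (median 27.1) in tdTom+ and between 16.7 and 22.0 CPM (median 19.7) in tdTom− cells. All 8 tdTom+ samples were above all 8 tdTom− samples, and the log2 fold change was 0.51 ± 0.07 (SE, edgeR adjusted p = 2.07e-06). Hoxa2, which sets the identity of the hyoid arch, lay between 2.82 and 5.30 CPM (median 4.13) in tdTom+ and between 2.30 and 3.62 CPM (median 2.76) in tdTom− cells. The groups overlapped but 7 of 8 mice were higher in tdTom+ cells, with a log2 fold change of 0.52 ± 0.14 (edgeR adjusted p = 0.00291). Without mouse 3 or mouse 7 this call was lost (log2 0.46 and 0.47), while when blocked by mouse the edgeR adjusted p was 0.00185. Of the exon bases of Hoxa2, 15.9% are shared with Gm28308, which had 0 counts. Hoxb3, which is active in the hindbrain, moved the other way: it lay between 5.74 and 11.4 CPM (median 8.48) in tdTom+ and between 8.93 and 15.4 CPM (median 14.2) in tdTom− cells. It was lower in tdTom+ cells in 8 of 8 mice although the groups overlapped, with a log2 fold change of −0.55 ± 0.14 (edgeR adjusted p = 0.00221). This call was lost without mouse 8 (log2 −0.51), while when blocked by mouse the edgeR adjusted p was 6.27e-06. The paralogs Hoxa3 and Hoxb3 were thus called in opposite directions.

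Hoxb2 did not pass the test (log2 0.68 ± 0.32, edgeR adjusted p = 0.0675) but did when blocked by mouse (log2 0.66 ± 0.19, adjusted p = 0.00658), higher in tdTom+ cells in 7 of 8 mice. Hoxd1 was under the filter with 44 counts in all, 41 of them in 7 tdTom+ libraries and 3 in 2 tdTom− libraries. The ratio of these pooled CPM was 15.98 (95% exact interval 5.10 to 80.7, counting error only), at levels of at most 0.732 CPM. Haglr, a long non-coding RNA that starts beside Hoxd1 on the opposite strand, had 42 counts in all 8 tdTom+ libraries and 0 in the tdTom− libraries. The exact 95% lower limit of its ratio was 12.7 (counting error only), and the ratio was 16.4 if a floor of 3 counts is assumed for the tdTom− group. Both genes of this shared start region were therefore found almost entirely in tdTom+ cells, at low depth, and both were singled out after their values were seen. Hoxd3 (54 counts) and Hoxb1 (2 counts) stayed under the filter.

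Of the central genes, groups 4 to 8, 11 were tested, and 5 fell and 1 rose. Of the falls 4 were in HoxB. Hoxb6 lay between 12.4 and 22.1 CPM (median 14.1) in tdTom+ and between 24.99 and 43.9 CPM (median 28.2) in tdTom− cells. No tdTom+ sample reached the lowest tdTom− sample, and the log2 fold change of −0.94 ± 0.13 (edgeR adjusted p = 1.76e-06) was the largest fall of the family. Hoxb5, known for its part in the enteric nervous system, lay between 3.74 and 8.03 CPM (median 4.75) in tdTom+ and between 5.78 and 14.3 CPM (median 9.31) in tdTom− cells, a log2 fold change of −0.83 ± 0.18 (edgeR adjusted p = 0.000622). Its groups overlapped, but the tdTom+ sample was the lower one in all 8 mice.

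Hoxb4, known from blood stem cells, lay between 2.31 and 4.94 CPM (median 3.03) in tdTom+ and between 4.36 and 6.02 CPM (median 4.60) in tdTom− cells. The overlap was small, all 8 mice were lower in tdTom+ cells, and the log2 fold change was −0.59 ± 0.14 (edgeR adjusted p = 0.000906). Hoxb8 lay between 9.84 and 21.7 CPM (median 12.2) in tdTom+ and between 15.4 and 26.4 CPM (median 18.9) in tdTom− cells, and it was lower in 8 of 8 mice (log2 −0.52 ± 0.16, edgeR adjusted p = 0.00775). That call was close to the threshold: it was lost when mouse 3, 4, 5, 6, 7 or 8 was left out, at log2 values of −0.47 to −0.53, while when blocked by mouse the adjusted p was 1.22e-05. Hoxb7, between Hoxb6 and Hoxb8, was the exception in this run of genes: it had medians of 9.10 CPM (tdTom+) and 9.80 CPM (tdTom−) and did not pass (log2 −0.20 ± 0.17, edgeR adjusted p = 0.313, and 0.0292 when blocked by mouse).

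In HoxA, Hoxa6 lay between 1.47 and 2.39 CPM (median 2.097) in tdTom+ and between 2.49 and 5.28 CPM (median 2.98) in tdTom− cells. The groups did not overlap, and the log2 fold change was −0.69 ± 0.16 (edgeR adjusted p = 0.000994). The neighbours behaved differently: Hoxa5, best known from lung development, had a log2 fold change of −0.36 ± 0.12 (edgeR adjusted p = 0.0108, and 0.00570 when blocked by mouse), and Hoxa7, among the most abundant, had medians of 34.6 CPM (tdTom+) and 35.5 CPM (tdTom−) (log2 0.06 ± 0.09, edgeR adjusted p = 0.616). Hoxd8 was the only central gene that rose in this test. It lay between 2.45 and 7.10 CPM (median 4.15) in tdTom+ and between 1.63 and 3.30 CPM (median 1.88) in tdTom− cells. All 8 mice had more in tdTom+ cells although the groups overlapped, and its log2 fold change of 1.07 ± 0.20 (edgeR adjusted p = 9.61e-05) was the largest rise of the family. The paralogs of group 8 were therefore called in opposite directions, Hoxb8 lower and Hoxd8 higher, while both tested genes of group 6, Hoxa6 and Hoxb6, fell. The other genes of these groups, Hoxa4 (log2 0.45 ± 0.21) and Hoxd4 (log2 0.47 ± 0.20), did not pass, with edgeR adjusted p-values of 0.0711 and 0.0457, and Hoxd4 shares 52.3% of its exon bases with Hoxd3 and Gm28230.

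Of the posterior genes, groups 9 to 13, 10 were tested, and 2 rose and 1 fell. Hoxb13 and Hoxb9, the most abundant, changed by 0.28 or less on the log2 scale. Hoxb13 lay between 200 and 294 CPM (median 235) in tdTom+ and between 150.2 and 270 CPM (median 206) in tdTom− cells, with wide overlap and a log2 fold change of 0.18 ± 0.12 (edgeR adjusted p = 0.195, and 0.0169 when blocked by mouse). Hoxb9 lay between 66.1 and 103 CPM (median 82.3) in tdTom+ and between 58.7 and 83.4 CPM (median 68.8) in tdTom− cells, and all 8 mice had more in tdTom+ cells, by 0.28 ± 0.08 on the log2 scale (edgeR adjusted p = 0.00682). The call of this small rise was lost without mouse 5, 6 or 8, at log2 values of 0.26 to 0.29. When blocked by mouse, with all 8 mice, its edgeR adjusted p was 5.74e-05.

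Group 13 did not move as 1 unit. Hoxa13, needed with Hoxd13 for the hindgut and the genital tubercle, lay between 15.04 and 23.1 CPM (median 19.5) in tdTom+ and between 21.6 and 36.2 CPM (median 31.7) in tdTom− cells. It was lower in all 8 mice, by 0.50 to 0.83 on the log2 scale, and the log2 fold change was −0.66 ± 0.11 (edgeR adjusted p = 1.67e-05). Hoxd13 lay between 15.2 and 37.8 CPM (median 24.4) in tdTom+ and between 19.97 and 42.0 CPM (median 24.97) in tdTom− cells, and the groups lay over each other (log2 −0.19 ± 0.18, edgeR adjusted p = 0.366, and 0.0279 when blocked by mouse). Hoxa13 thus fell, while Hoxb13 and Hoxd13 did not pass the test.

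Hoxa11, known from the limb, kidney and uterus, rose. It lay between 4.85 and 9.69 CPM (median 7.17) in tdTom+ and between 1.70 and 4.97 CPM (median 3.78) in tdTom− cells, with more in tdTom+ cells in all 8 mice, by 0.92 ± 0.18 on the log2 scale (edgeR adjusted p = 0.000151). Hoxa10, between 37.0 and 50.7 CPM (median 40.1) in tdTom+ and between 28.6 and 44.5 CPM (median 38.5) in tdTom− cells, did not pass (log2 0.14 ± 0.09, edgeR adjusted p = 0.165, and 0.0297 when blocked by mouse). Hoxa9 and Hoxd10 passed as lower when blocked by mouse (log2 −0.27 ± 0.07 and −0.72 ± 0.18, adjusted p = 0.00187 and 0.00203) but not without it (adjusted p = 0.0125 and 0.0133). Hoxd11 (log2 −0.07 ± 0.23) and Hoxd12 (log2 0.29 ± 0.21) did not pass, and Hoxd9 stayed under the filter with 142 counts.

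**Figure D3:**
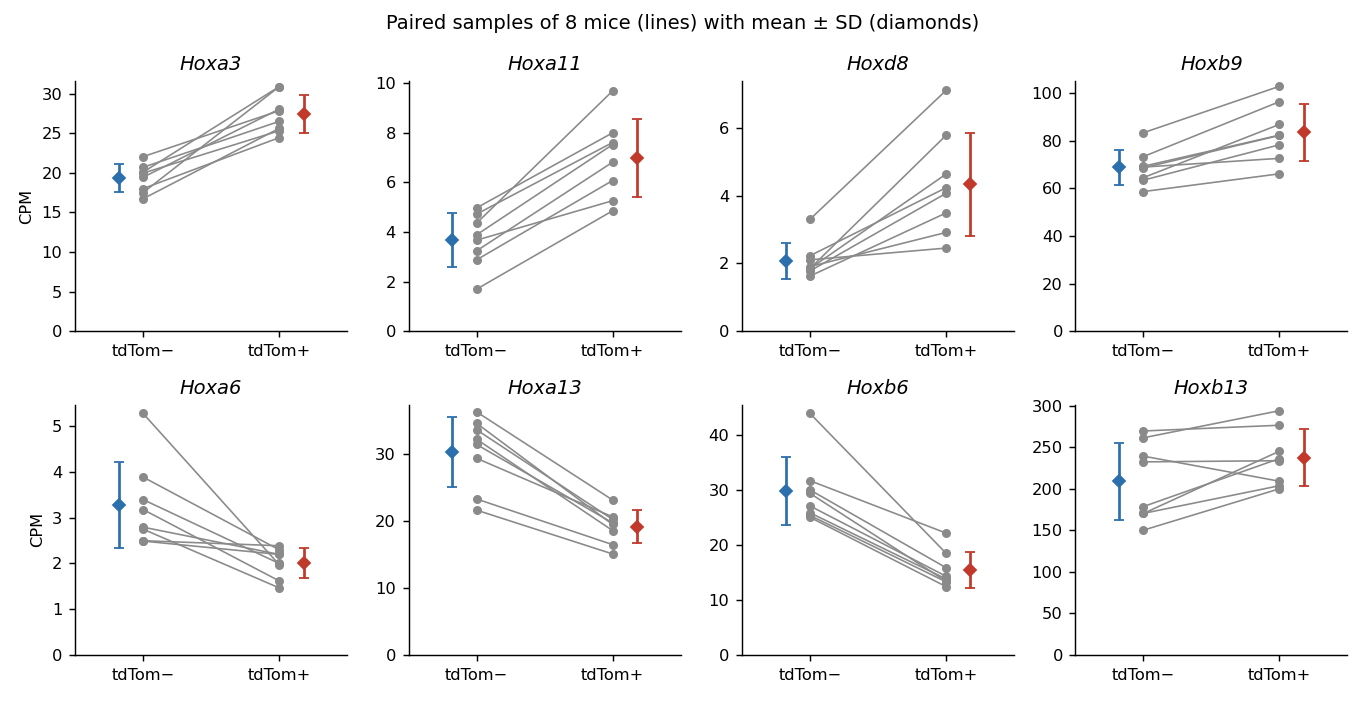
CPM of 8 Hox genes in the tdTom− and tdTom+ library of each mouse (lines) with the mean ± SD of 8 mice (diamonds). The lines of Hoxa3, Hoxa11, Hoxd8 and Hoxb9 climb and those of Hoxa6, Hoxa13 and Hoxb6 drop in all 8 mice, while those of Hoxb13 cross.

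Along the clusters the direction changed within short distances. In HoxA the log2 fold changes of the 10 genes tested ran from 0.92 for Hoxa11 to −0.69 for Hoxa6, with a median of 0.10, in HoxB the median of 9 was −0.52, and in HoxD the median of 6 was 0.11, beside 0.004 over all genes tested. Of 46 other genes annotated inside the cluster spans, 9 were tested, 1 was higher and 1 lower, beside 25.5% of all genes in each direction. The rise was Hoxaas3, an antisense non-coding gene of HoxA (chromosome 6, 52175217 to 52215076, plus strand) that lies across the genes from Hoxa4 to Hoxa6 and most of Hoxa3. Its median was 36.3 CPM (tdTom+) and 8.94 CPM (tdTom−), the groups did not overlap, and its log2 fold change of 1.97 ± 0.07 (edgeR adjusted p = 7.01e-15) exceeded that of every Hox gene. Counting used the strand, so its reads are separate from those of Hoxa3, which rose, and of Hoxa6, which fell. 9530018H14Rik, in the HoxA span toward Hoxa13, was called lower (log2 −0.56 ± 0.18, edgeR adjusted p = 0.00872), a call lost without any 1 of mice 1 to 7 (adjusted p up to 0.0371) and within either run of title numbers. Hoxa11os, antisense to Hoxa11, stayed level at medians of 46.1 and 45.9 CPM (log2 0.01 ± 0.11, edgeR adjusted p = 0.965) while Hoxa11 rose, and Gm53, between Hoxb13 and Hoxb9, had medians of 66.4 and 70.7 CPM (log2 −0.11 ± 0.06, edgeR adjusted p = 0.0934).

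**Figure D4:**
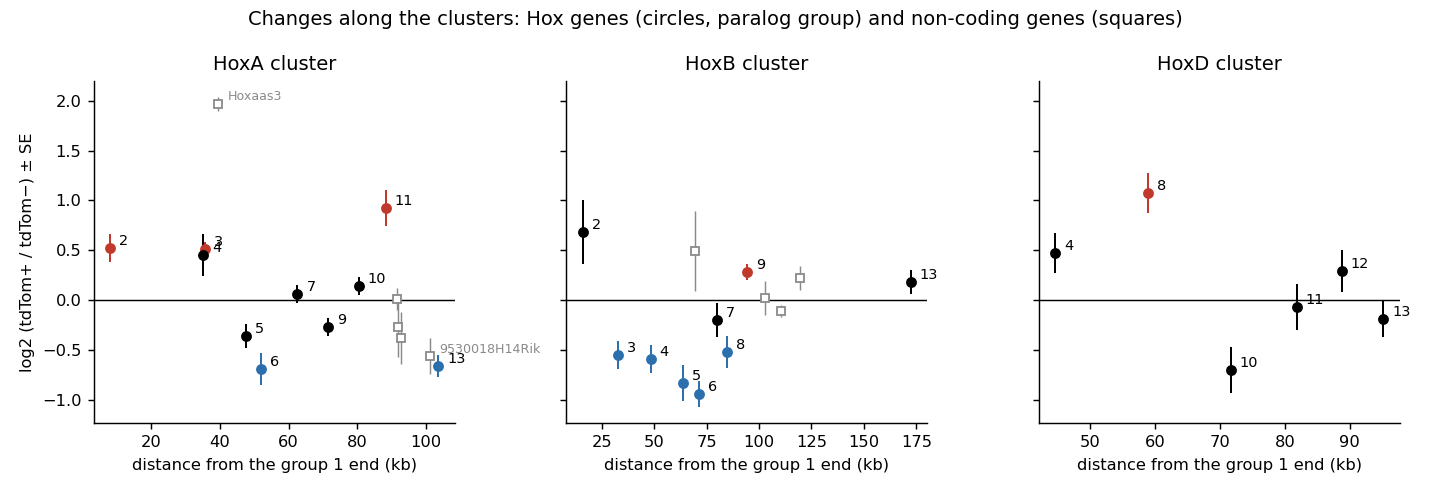
Log2 ratio of tdTom+ to tdTom− cells (± SE) against the distance in kb from the group 1 end of each cluster, with Hox genes as circles labelled by paralog group (red rose, blue fell, black did not pass) and other genes inside the span as open squares. In HoxB the genes of groups 3 to 8 all lie below 0, and in HoxA the points for Hoxa3 and Hoxaas3 lie above and those for Hoxa5 and Hoxa6 below.

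The design also allowed each Hox gene to be compared between mice, by testing the 7 mouse terms together in the fit with population and mouse. Of the 25 Hox genes 6 differed between mice (24.0%), beside 5.81% of all genes tested, and 4 of the 6 were also called between the populations. Among the other gene lists the count ran from 0 of 6 tested Hox cofactors to 6 of 10 in each of the absorptive, enteroendocrine and proliferation lists. As a description of log2 CPM, the mouse accounted for a median of 46.0% of the variation of a Hox gene and the population for 39.2%, while over all genes tested these medians were 32.9% and 42.4%. The mouse took the larger share in 15 of 25 Hox genes, beside 46.8% of all genes. A mouse here also stands for its dissection, its litter, its sex and its run of title numbers, which cannot be told apart.

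Hoxd13 differed most clearly (edgeR adjusted p = 0.000541), with 84.1% of its variation between mice and 6.34% between populations. Mouse 5 was highest in both populations at 37.8 CPM (tdTom+) and 42.0 CPM (tdTom−), and the other mice lay between 15.2 and 27.9 CPM and between 19.97 and 34.3 CPM. Hoxb7 was the next (edgeR adjusted p = 0.00252, 83.8% between mice). It was highest in mice 1 and 2 in both populations, at 13.1 and 13.99 CPM in tdTom+ and 14.4 and 13.9 CPM in tdTom−, where the other 6 mice reached at most 9.59 and 12.2 CPM.

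Of the HoxB neighbours, Hoxb8 (edgeR adjusted p = 0.00393), Hoxb3 (0.00854) and Hoxb6 (0.00909) all had their highest mean in mouse 1, and the summed level of Hoxb3 to Hoxb8 was 32.7 and 34.4 CPM per kb in the tdTom+ cells of mice 1 and 2, against 18.7 to 26.0 CPM per kb in the other 6 mice. In tdTom− cells it was 52.5 and 42.7 CPM per kb in mice 1 and 2 and 31.1 to 40.5 CPM per kb in the others. Hoxa13 (edgeR adjusted p = 0.00641) ran the other way, lowest in mice 1 and 2 at 15.04 and 16.4 CPM in tdTom+ and 21.6 and 23.2 CPM in tdTom− cells, where the other mice had at least 18.5 and 29.3 CPM. Hoxb13 was also lowest in mouse 1 in both populations, at 200 and 150.2 CPM, but did not pass between mice (edgeR adjusted p = 0.0159). Mice 1 and 2 were thus highest for the summed level of Hoxb3 to Hoxb8 and lowest for Hoxa13 in both of their libraries. This pair was singled out after its values were seen, and it did not stand apart for each gene. The mean of Hoxb8 was 19.85 CPM in mouse 4 and 19.45 CPM in mouse 2, and Hoxb3 in tdTom+ cells was at 11.2 and 10.2 CPM.

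**Figure D5:**
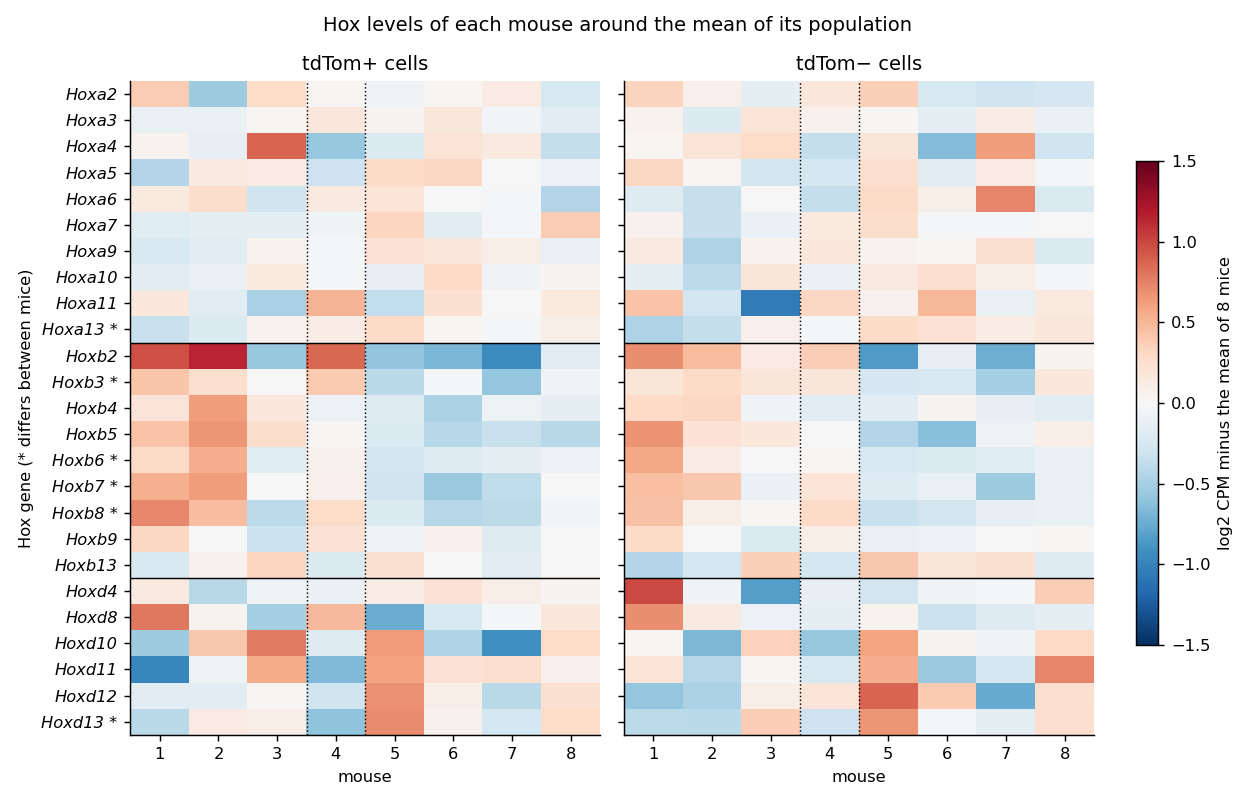
Log2 CPM of each of the 25 Hox genes in each mouse minus the mean of the 8 mice of the same population, tdTom+ on the left and tdTom− on the right (red above, blue below, dotted lines between runs of title numbers, asterisk for genes that differ between mice). Mice 1 and 2 are red for Hoxb3 to Hoxb8 in both panels, and mouse 5 is red for Hoxd10 to Hoxd13.

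Other values also differed between the mice. The Y-linked genes Ddx3y, Eif2s3y and Uty summed to 1813 to 2138 counts in the libraries of mice 1 and 2 and to 7 to 24 counts in the other 12. Summed proliferation genes were at 757 and 629 CPM in the tdTom+ cells of mice 1 and 2 and at 752 to 1017 CPM in the other mice, so that mouse 1 lay within their range. In tdTom− cells they were at 1071 and 771 CPM against 956 to 1374 CPM. Summed enteroendocrine markers were at 831 and 824 CPM against 331 to 688 CPM in tdTom+ cells, and at 4282 and 2953 CPM against 1464 to 3040 CPM in tdTom− cells, where mouse 2 lay within the range of the others. The part of these values in the Hox differences was not tested. Mice 1 to 3 and mice 5 to 8 carry separate runs of title numbers. Within mice 5 to 8 only Hoxd13 of the 27 Hox genes tested there differed between mice (1.73% of all genes), and within mice 1 to 3 none of 26 did in the edgeR fit (0.981% of all genes, with 11 of the 26 Hox genes at an unadjusted p under 0.05). Leaving out mouse 1 left 3 Hox genes that differed between mice, leaving out mouse 5 left 2 and lost Hoxd13, and leaving out any other single mouse left 4 to 7.

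The comparison of the populations was also made within each run of title numbers. Within mice 5 to 8 alone, 4 of 27 Hox genes were higher and 7 lower (21.4% and 22.3% of all genes), and within mice 1 to 3 none of 26 was higher and 2, Hoxb5 and Hoxb6, were lower in the edgeR fit (15.9% and 16% of all genes, with 3 Hox genes higher and 5 lower at an unadjusted p under 0.05). All 12 called genes kept their direction in both runs, with Hoxb6 at log2 −0.95 in mice 1 to 3 and −0.94 in mice 5 to 8, Hoxa13 at −0.57 and −0.75, Hoxa11 at 1.00 and 0.81, and Hoxd8 at 0.94 and 1.00. Whether these differences themselves differed between the runs was not tested.

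Genes known to act with or on Hox genes were listed beside them. Of 9 Hox cofactors 6 were tested, and Pbx3, a homeodomain partner of Hox proteins, rose (log2 0.41 ± 0.11, edgeR adjusted p = 0.00334, lost without mouse 3 or mouse 8), while Meis1 had 26 counts and was not tested. Of the 6 ParaHox and caudal genes 3 were tested and Cdx2, which with Cdx1 controls intestinal identity and Hox expression, fell (log2 −0.65 ± 0.10, edgeR adjusted p = 1.56e-05) where Cdx1 did not pass (log2 −0.06 ± 0.06, adjusted p = 0.410). Of 14 regional factors tested 3 rose and 7 fell, led by Foxa3 (log2 2.51 ± 0.09), Gata4 (−2.16 ± 0.37) and Foxa2 (1.32 ± 0.08). Of 26 Polycomb and trithorax genes, which keep Hox genes silent or active, 3 rose and 5 fell (9 when blocked by mouse), led by Mtf2 (log2 1.14 ± 0.06), Phf19 (−0.96 ± 0.15) and Cbx2 (−0.60 ± 0.08), with Ezh2 at −0.39 ± 0.09 (edgeR adjusted p = 0.000705). Of 10 retinoic acid pathway genes tested 1 rose and 6 fell, among them Aldh1a1 (log2 −3.58 ± 0.22) and Stra6 (−1.74 ± 0.24), and the receptor Rara was lower by −0.42 ± 0.08 (edgeR adjusted p = 6.71e-05). The Polycomb and trithorax list had 8 of 26 called in either direction, beside 51.0% of all genes tested. The retinoic acid list had 6 of 10 lower, beside 25.5% of all genes lower and 25.5% higher.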

How the data were processed

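The authors aligned stranded mRNA reads of 16 colon libraries to GRCm38 with TopHat2 and deposited raw counts per gene (whole reads on exons, reverse strand, primary alignments), made with featureCounts 1.5.0-p1 according to the file headers, where the submitters' processing notes name Subread 1.5.2. Reads shared by paralogs or overlapping genes could be lost in that counting. Groups and mouse numbers came from the sample labels. Symbols came from GENCODE M21 for 44671 of 45513 genes. The members and lists were chosen with earlier results of these data known. Hox genes named in detail are those past the threshold plus the 6 with the highest CPM per kb, and of each other list the 3 largest called changes and its best-known genes. Values of a few genes that this rule names are not reported here.

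Counts were fitted with edgeR 4.0.16 (filterByExpr, TMM, glmQLFit and glmQLFTest, no mouse term) in R 4.3.3 over all genes, calling genes below 0.01 after Benjamini-Hochberg adjustment. Standard errors come from the F statistic, CPM uses TMM library sizes, and log2 CPM a prior count of 2. The methods of the study state no mouse term, so the mouse as a block was an alternative. The 2 libraries of a mouse come from 1 animal, and their deviations from the group means correlated at 0.223 to 0.409 over genes, against at most 0.168 between mice. The alternatives were the block, the block with GC content and length of the longest GENCODE transcript, DESeq2 1.42.0, limma-voom (limma 3.58.1), RLE and upper-quartile scaling, 2 other filters, each mouse left out, mice 1 to 3 or 5 to 8 only, and an adjusted p of 0.05. The scripts were checked on simulated counts with known changes. The p-values of the fit without a mouse term measure the spread between the libraries of a population, 1 per mouse. They treat the 16 libraries as independent although 2 come from each mouse. Those of the blocked fit and of the mouse terms use the spread left after population and mouse are fitted. Between populations, the fits with mice left out or within a run of title numbers had no mouse term.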

Additional observations from a re-analysis of the deposited data

Results flagged for a closer look

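In 50 groups of 8 samples (25 Hox genes in each population) the highest and lowest sample were compared with the rest, and 2 groups had 1 sample far from the others, where chance would give about 1 in 20, or 2.5. Hoxb6 in tdTom− cells stood at 43.9 CPM in mouse 1, against 24.99 to 31.6 CPM in the other 7 mice. Hoxd8 in tdTom− cells stood at 3.30 CPM in mouse 1, against 1.63 to 2.23 CPM in the other 7. Without mouse 1 both genes were still called, Hoxb6 as lower and Hoxd8 as higher in tdTom+ cells.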

How the results depend on the processing

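Over 19 alternatives the 15 Hox genes described in detail kept the direction of their change, and of 285 values 260 stayed on the same side of the threshold, 23 lost the call and 2 gained it. The number of Hox genes higher in tdTom+ cells was 5 and went to 8 with the mouse as a block plus GC content and length, and to 0 in mice 1 to 3 only. The number lower was 7 and went to 2 in mice 1 to 3 only, where 6 libraries were used. Blocking by mouse, which uses the pairing of the libraries, gave 6 higher and 10 lower, adding Hoxb2, Hoxa5, Hoxa9 and Hoxd10 and losing none of the 12. Leaving out 1 mouse gave 4 to 6 higher and 5 to 9 lower. The number that differ between mice was 6 and depended more on the setting: 11 with DESeq2 (13.1% of all genes, against 5.81%), 16 of 35 tested without a filter (12% of all genes), 13 at an adjusted p of 0.05, 1 in mice 5 to 8 only, 0 in mice 1 to 3 only (an alternative chosen after seeing the data) and 2 to 7 with 1 mouse left out. The cause was not tested, apart from the smaller number of samples in the subsets. Depth limits the 14 Hox genes under the filter, and the absence of a call in the main fit says nothing about a change in them. Without the filter Hoxd1 was called higher in tdTom+ cells (log2 3.57, edgeR adjusted p = 0.000693), on 44 counts in all.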

Other observations

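The protein-coding genes beside the clusters were described as well, taking the nearest pair on each side, of which 14 of 16 were tested, 2 rose and 4 fell, beside 25.5% of all genes in each direction. Evx1, a homeobox gene beyond Hoxa13, had medians of 0.956 CPM (tdTom+) and 2.498 CPM (tdTom−) without overlap (log2 −1.47 ± 0.27, edgeR adjusted p = 6.75e-05), so it fell together with Hoxa13. Evx2, its counterpart beyond Hoxd13, did not pass (log2 0.31 ± 0.28, edgeR adjusted p = 0.352), and neither did Hoxd13. Lnpk, next to Evx2, rose in 8 of 8 mice (log2 0.71 ± 0.08, edgeR adjusted p = 1.67e-07). Ttll6, beyond Hoxb13, fell (log2 −0.67 ± 0.13, edgeR adjusted p = 0.000178) while Hoxb13 did not pass, and Snx10 (log2 −0.30 ± 0.09), Calcoco1 (−0.29 ± 0.09) and Atp5g2 (0.28 ± 0.07) were called with smaller changes, of which that of Snx10 was lost without mouse 3, 4 or 5, that of Calcoco1 without mouse 1, 3, 4, 5, 7 or 8, while that of Atp5g2 held whichever mouse was left out. Hoxb5os, which lies antisense across Hoxb5 and Hoxb6, did not pass between populations (log2 0.49 ± 0.40, edgeR adjusted p = 0.303). It differed between mice at the same threshold, as did Hoxb6, while Hoxb5 did not pass between mice (edgeR adjusted p = 0.0116). Hoxb3, Hoxb7 and Hoxb8, outside the span of Hoxb5os, differed between mice as well.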
